A study of Homo sapiens with 12 samples.

Results

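Untreated cells of U87 and U118, both established human glioblastoma lines, were compared with each other. The groups were 3 libraries of U87 control cells and 3 libraries of U118 control cells, 6 of the 12 libraries of the series. The members were genes. The tables of both lines were joined on the Ensembl gene identifier, and a gene was kept where at least 3 of the 6 libraries held at least 1 TPM, which left 15492 of 58174 genes. TPM, the transcript level per length at a fixed library total, is an estimate of abundance that can be compared between genes of a library. Both lines (U-87 MG and U-118 MG) came from ATCC, and cells without CD133 and CD15 on their surface were sorted from each and kept with bone morphogenetic protein BMP2, so both groups are a sorted, BMP2-treated fraction of a line. The labels call these untreated cells sensitive and the study calls them control cells. The other 6 libraries came from aggregation cells of the same lines, which formed after treatment with the alkylating drug temozolomide (TMZ) at 50 µM. These libraries are labelled resistant. Each line stands for itself alone, and each line has its own deposited table, so that a difference between the lines and any difference between the tables cannot be told apart. Nothing in the sources says that the 3 libraries of a line came from separate cultures, and p-values then measure only the spread between these libraries, which may be technical.

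Glioblastoma is the most malignant astrocytic brain tumour, and its cell lines keep astrocytic, stem-like or mesenchymal expression to different degrees. TMZ methylates DNA at the O6 position of guanine, MGMT removes that methyl group directly, and mismatch repair turns the lesions that stay into strand breaks. Deletion of the cell cycle inhibitors at 9p21 and activation of receptor tyrosine kinases are frequent events in this tumour, and a cultured line often adopts a mesenchymal programme of matrix, adhesion and protease genes.

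The 2 lines stood far apart relative to the spread within each. Spearman correlation across the tested genes, which are not independent replicates, was 0.972 to 0.986 between U87 libraries, 0.974 to 0.988 between U118 libraries and 0.770 to 0.824 between lines. U87 libraries held 13448 to 14070 genes at 1 TPM or more and U118 libraries 15129 to 15290. Mitochondrially encoded genes took 12.9 to 16.9% of TPM in U87 and 7.42 to 19.7% in U118, with the highest share in U118 control 3. U87 control 2 stood apart from its group, with 834 genes more than 1 log2 unit above the mean of the other 2 libraries, against 67 to 145 genes for the other 5 libraries. U118 control 3 and U87 control 1 had 361 and 294 genes more than 1 log2 unit below the mean of the other 2 libraries of their group, against 74 to 101 for the other 4. The files give no read counts, so the depth is unknown. The 3 libraries labelled U118 resistant, which enter only the last comparison, lay nearer to the U87 control mean than to the U118 control mean in 59.1, 77.3 and 76.3% of the genes called between control cells. Of astrocyte markers in the sorted cells, VIM lay at 4641 to 4726 TPM in U87 and 5863 to 6157 TPM in U118, GFAP, the intermediate filament that defines astrocytes, stayed below 1 TPM in all 6 libraries, and AQP4 was listed at 0 in all of them.

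Of the 15492 genes, 1751 (11.3%) were called higher in U87 and 4166 (26.9%) higher in U118, 5917 (38.2%) in all. A call required a Benjamini-Hochberg adjusted p under 0.05 in limma's test on log2(TPM + 1) and a difference of at least 1 log2 unit, and every difference below is U87 minus U118 on that scale, with its standard error. The scale understates the change of low genes. A pair of ranges written as 1 against the other gives the lowest and highest TPM of U87 and then of U118. The groups of 3 did not overlap for 10504 genes (67.8%). The median difference over all genes was -0.42, with 5251 genes higher in U87 and 10241 higher in U118 at any size. After median-ratio scaling the median was -0.06, a shift of 0.36, and 2601 genes were called higher in U87 against 2636 in U118, so that the U87 share of calls was 29.6% as deposited and 49.7% after scaling. No call turned direction, but among genes named below those of CD44, CDKN1B, GJA1, MT1X, PMS2, RNF11 and XRCC1 were lost, and the list medians below are best read relative to -0.42. Without U87 control 2 the calls were 1728 and 4790, without U118 control 3 they were 1621 and 3962, and without U87 control 1 they were 1744 and 3629. The counts of each gene list below stand against the 11.3% and 26.9% of all genes. A gene under 1 TPM in all 3 libraries of a line passed the minimum only through the other line, which fixed its direction.

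**Figure D1:**
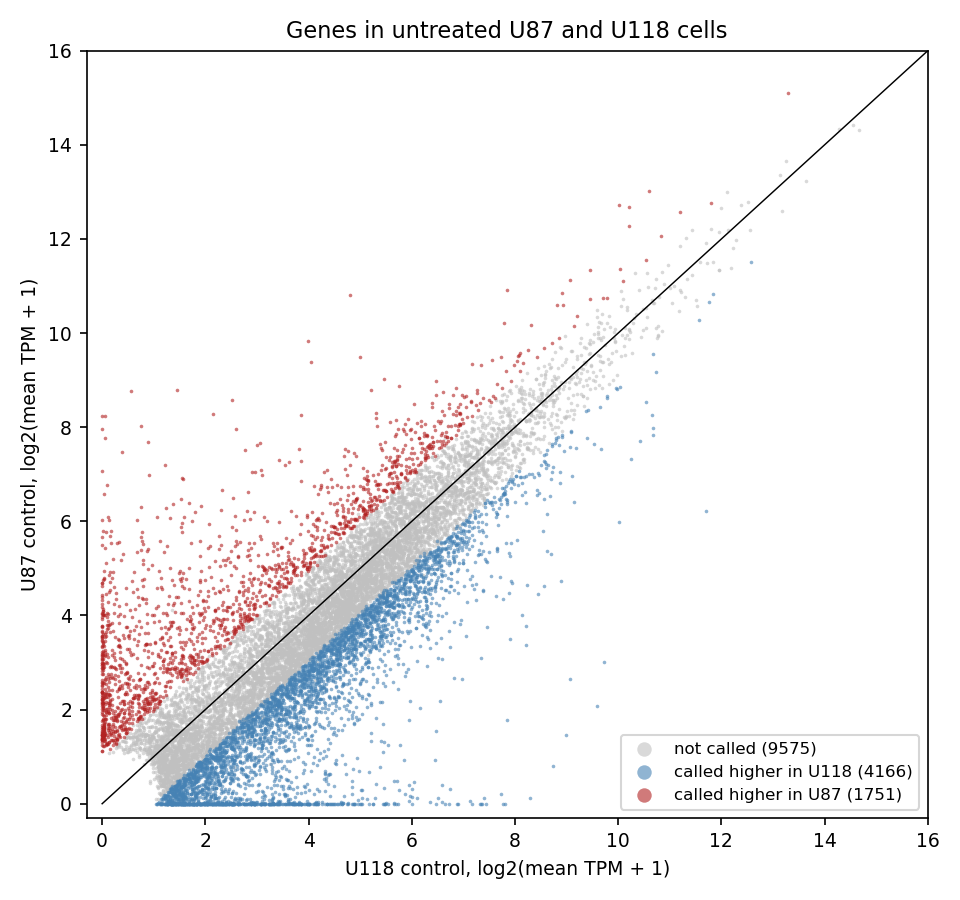
Mean level of each tested gene in the 3 U87 control libraries (vertical axis) against that in the 3 U118 control libraries (horizontal axis), both as log2(mean TPM + 1), with 1 point per gene, called genes coloured and the line of equal level drawn. The 4166 genes called higher in U118 form the broader band, and both axes carry a row of genes at or near 0 in the other line.

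Of the 5 most abundant nuclear transcripts of each line, FTL and GAPDH were on both lists. FTL and FTH1, the ferritin chains that store iron, the glycolytic enzyme GAPDH, the actin-binding TMSB10 and ACTB led in U87, and GAPDH, FTL, the elongation factor EEF1A1, the ribosomal protein RPS2 and VIM led in U118. GAPDH was at 10144, 9601 and 9303 TPM in U87 and 12325, 13150.0 and 13045 TPM in U118. Its groups did not overlap, and with a difference of -0.41 it was not called. FTL was at 33705 to 37277 TPM in U87 and 9276 to 10959 TPM in U118 and was called higher in U87 (1.82 ± 0.19, adjusted p = 0.000113). RPS2 was at 2893 to 2952 TPM in U87 and 4789 to 7829.8 TPM in U118 and was called higher in U118 (-1.03 ± 0.21, adjusted p = 0.00348), a call that was lost after scaling and without U118 control 2 (difference -0.83).

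The 10 protein-coding genes with the largest differences in favour of U87 were RAB32, PTPRN, OCIAD2, CAVIN3, CTSK, RAC2, DNM1, NR0B1, APOE and WNT7B. RAB32, a small GTPase of lysosome-related organelles, was at 318, 305 and 285 TPM in U87 and 0 in all 3 U118 libraries (adjusted p = 1.31e-07). Every U87 library was far above the U118 libraries. PTPRN, a protein of dense-core secretory vesicles, was at 316, 277 and 311 TPM in U87 and 0.0713, 0.0244 and 0.018 TPM in U118. OCIAD2 was at 249, 239 and 258 TPM in U87 and was listed at 0 in every U118 library. CAVIN3, a coat protein of caveolae, was at 232, 218 and 205 TPM in U87 and 0, 0.111 and 0 TPM in U118. These 4 genes were thus near or at 0 in the U118 control cells and abundant in U87. CTSK, a collagen-degrading cathepsin, was at 451, 392 and 476 TPM in U87 and 1.89, 1.7 and 1.62 TPM in U118, with detected levels on both sides (7.33 ± 0.14, adjusted p = 1.31e-07). RAC2, a small GTPase of blood cells, was at 271, 243 and 266 TPM in U87 and 0.637, 0.773 and 0.649 TPM in U118, and DNM1, the neuronal dynamin of endocytosis, at 171, 185 and 176 TPM in U87 and 0.267, 0.146 and 0.503 TPM in U118. NR0B1 (DAX1), a nuclear receptor of steroidogenic tissue, was at 132, 139 and 128 TPM in U87 and was listed at 0 in U118. APOE, the lipid carrier that astrocytes secrete, was at 219, 201 and 192 TPM in U87 and 0.969, 1.19 and 0.404 TPM in U118 (6.81 ± 0.20, adjusted p = 3.65e-07). WNT7B, a WNT ligand, was at 116, 102 and 105 TPM in U87 and 0.0657, 0.0976 and 0.0458 TPM in U118. In none of the 10 did the groups overlap, which the choice of these genes required. RAB32, PTPRN, OCIAD2, CAVIN3, RAC2, DNM1, NR0B1 and WNT7B were under 1 TPM in every U118 library. They passed the minimum only through U87, which fixed their direction.

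In favour of U118 the 10 genes were THY1, MEST, SPANXB1, FOXF2, FST, MMP1, FAM180A, CDKN2C, GYPC and COLEC12. THY1 (CD90), a surface glycoprotein of fibroblasts and mesenchymal stem cells, was at 0.127, 0.0588 and 0.0882 TPM in U87 and 213, 459 and 269.6 TPM in U118, a difference of -8.10 ± 0.27, adjusted p = 6.02e-07. The U118 libraries varied more than 2-fold among themselves, and all lay far above the U87 libraries. MEST, an imprinted gene expressed from the paternal allele, was at 0.29, 1.06 and 0.896 TPM in U87 and 499, 351 and 426 TPM in U118. FOXF2, a forkhead factor of mesenchyme and brain pericytes, was listed at 0 in every U87 library and was at 205, 219.8 and 228 TPM in U118 (adjusted p = 1.31e-07). FST (follistatin), a secreted antagonist of activin, was at 1.68, 2.25 and 1.3 TPM in U87 and 575, 536 and 409.9 TPM in U118. MMP1, interstitial collagenase, was at 2.95, 2.69 and 4.08 TPM in U87 and 809, 681 and 821 TPM in U118 (-7.52 ± 0.17, adjusted p = 1.86e-07). CDKN2C (p18INK4C), an inhibitor of CDK4 and CDK6, was listed at 0 in every U87 library and was at 189, 190.5 and 135 TPM in U118 (adjusted p = 2.38e-07). GYPC, a membrane skeleton glycoprotein, was listed at 0 in U87 and was at 145, 161 and 177 TPM in U118. COLEC12, a scavenger receptor, was listed at 0 in U87 and was at 142, 143 and 193 TPM in U118. SPANXB1, a cancer-testis gene of the X chromosome with near-identical copies among which reads may be split, was listed at 0 in U87 and was at 179, 201 and 291 TPM in U118. FAM180A was at 0.0591, 0.246 and 0.156 TPM in U87 and 273, 207 and 155 TPM in U118. The spread within U118 was small next to these differences in all 10 genes, which the choice of these genes favoured. THY1, SPANXB1, FOXF2, FAM180A, CDKN2C, GYPC and COLEC12 were under 1 TPM in every U87 library. They passed the minimum only through U118, which fixed their direction.

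**Figure D2:**
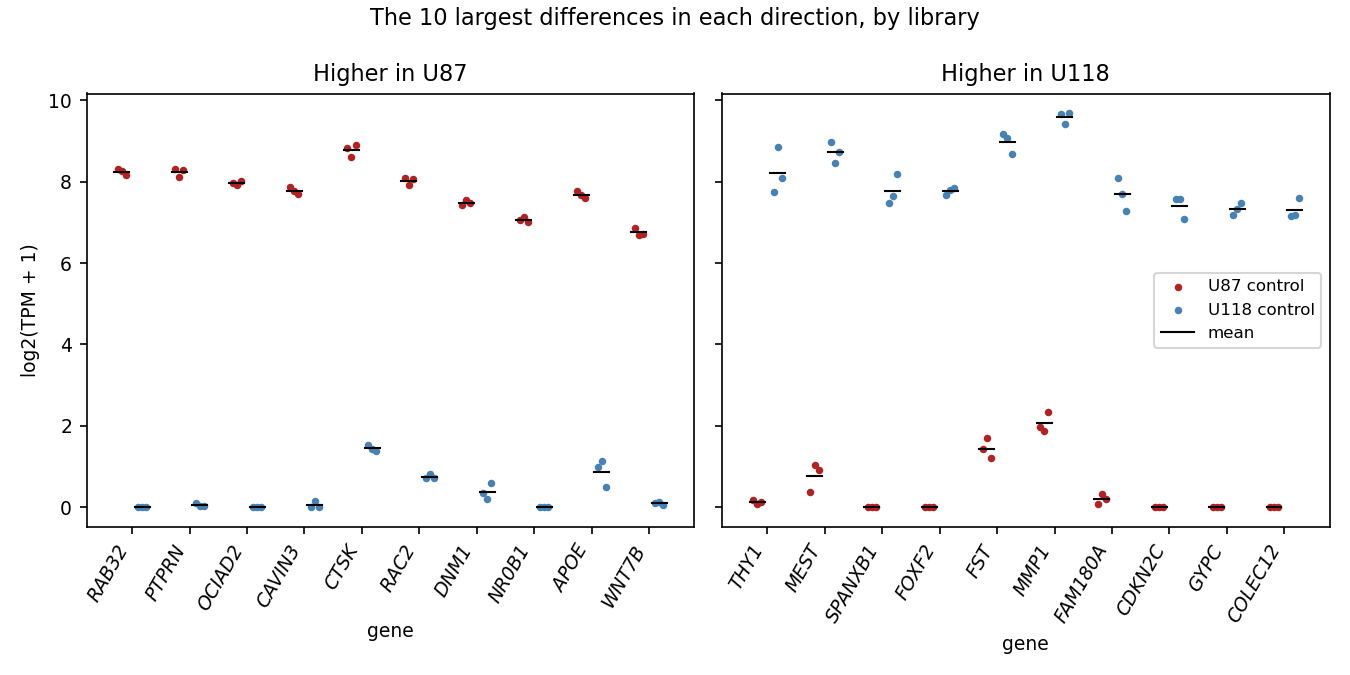
Level of the 20 genes with the largest differences, as log2(TPM + 1), with 1 point per control library (red U87, blue U118) and a bar at the mean. The left panel holds the genes higher in U87 and the right panel those higher in U118, and in every gene all 3 libraries of the higher line lie at least 5 log2 units above all 3 of the other.

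Line-specific genes were defined more strictly, by at least 10 TPM in all 3 libraries of one line and under 0.1 TPM in all 3 of the other. An exact 0 in a table without counts can also be a failed estimate, and such genes are given as listed at 0, with no fold. The definition held for 44 genes in favour of U87 and 110 in favour of U118. Of the 44, 42 were protein-coding and 21 were listed at 0 in every U118 control library. Of the 110, 92 were protein-coding and 87 were listed at 0 in every U87 control library. Chromosome 19 held 27 of the 110, the X chromosome 12 and chromosome 1 held 10. Of all 15492 tested genes these chromosomes held 1125, 526 and 1468, so that chromosome 1 was close to its share. The 44 were led by chromosome 10 with 6 and chromosome 9 with 5, which held 580 and 567 of the tested genes. Examples of the 44, chosen after their values were seen, are DKK1, a secreted WNT inhibitor (20.6 to 29.6 against 0 to 0.0484 TPM), ALDH2, the mitochondrial enzyme that clears acetaldehyde (12 to 41.9 against 0 to 0.000292 TPM), PLAGL1, an imprinted zinc finger gene (10.2 to 11.9 against 0 to 0.0251 TPM), the cytokine TNFSF9 (13 to 15.7 against 0 TPM) and CD40, a receptor of the same cytokine family (16.1 to 21.5 against 0 TPM). Examples of the 110 are PDGFRA, the receptor of platelet-derived growth factor A (0 to 0.092 against 71.8 to 88.3 TPM), the WNT antagonist SFRP1 (0 against 84.6 to 93.2 TPM), DCN (decorin), a matrix proteoglycan (0 against 32.9 to 39.6 TPM), ITGA11, a collagen-binding integrin chain (0 to 0.0267 against 10.4 to 13.2 TPM), and NKX2-2, a homeodomain factor of the oligodendrocyte lineage (0 against 19.2 to 26.3 TPM).

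Promoters of 4 genes that were listed at 0 in all control libraries of a line are shown, because the lines differ in whether any transcript of them was listed. RAB32 was present in U87, and FOXF2, the direct repair gene MGMT and the zinc finger gene ZNF667 in U118. Each run holds 250 bases before and 50 bases after the RefSeq start on GRCh38.p14, 5′ to 3′ on the strand of the gene, with every CG dinucleotide in capitals, since CG is the substrate of DNA methylation and reads the same on both strands.
RAB32 (chr6:146543583-146543882, plus strand): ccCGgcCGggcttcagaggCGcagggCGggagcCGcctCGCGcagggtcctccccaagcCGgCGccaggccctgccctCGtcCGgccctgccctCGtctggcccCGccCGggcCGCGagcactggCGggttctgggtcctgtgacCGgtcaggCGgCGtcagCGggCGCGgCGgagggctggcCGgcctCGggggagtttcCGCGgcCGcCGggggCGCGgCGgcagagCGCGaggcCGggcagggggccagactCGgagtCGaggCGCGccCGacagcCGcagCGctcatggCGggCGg
FOXF2 (chr6:1389326-1389625, plus strand): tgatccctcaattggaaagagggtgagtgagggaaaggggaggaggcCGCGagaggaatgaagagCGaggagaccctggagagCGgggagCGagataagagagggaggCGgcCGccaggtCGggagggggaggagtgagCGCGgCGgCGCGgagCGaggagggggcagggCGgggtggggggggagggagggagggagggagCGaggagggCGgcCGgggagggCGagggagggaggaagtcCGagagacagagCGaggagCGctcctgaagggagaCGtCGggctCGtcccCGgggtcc
MGMT (chr10:129466991-129467290, plus strand): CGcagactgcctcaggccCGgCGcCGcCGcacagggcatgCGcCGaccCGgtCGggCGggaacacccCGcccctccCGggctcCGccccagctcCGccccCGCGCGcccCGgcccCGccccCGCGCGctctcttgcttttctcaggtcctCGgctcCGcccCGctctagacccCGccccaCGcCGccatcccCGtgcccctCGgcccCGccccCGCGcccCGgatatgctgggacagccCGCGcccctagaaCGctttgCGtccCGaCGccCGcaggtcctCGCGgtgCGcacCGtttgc
ZNF667 (chr19:56477296-56477595, minus strand): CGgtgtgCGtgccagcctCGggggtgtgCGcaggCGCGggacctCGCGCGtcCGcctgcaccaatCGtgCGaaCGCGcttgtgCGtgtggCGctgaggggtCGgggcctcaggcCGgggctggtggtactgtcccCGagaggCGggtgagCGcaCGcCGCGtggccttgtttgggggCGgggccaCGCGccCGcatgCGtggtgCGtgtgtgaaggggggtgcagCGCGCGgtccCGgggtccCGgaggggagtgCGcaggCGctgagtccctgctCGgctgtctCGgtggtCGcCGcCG
These windows held 45 CG in RAB32, 26 in FOXF2, 45 in MGMT and 42 in ZNF667, against a median of 26 over the 10005 tested protein-coding genes with a promoter in the RefSeq table and 14 over all 27305 promoters of the table. The windows of ZNF93, ZNF254 and CPVL, read in the same way and not shown, held 10, 10 and 23 CG. Among the line-specific protein-coding genes, 33 of the 42 of U87 matched the table with a median of 27 CG, and 72 of the 92 of U118 with a median of 18.5. At least 10 CG stood in 81.8% of the former, 75% of the latter, 88.7% of all tested protein-coding genes and 56.0% of all promoters. Methylation was not measured in these samples.

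A run of genes on the short arm of chromosome 1 was absent from U87. DMRTA2 (0 against 5.47 to 7.9 TPM), FAF1, which binds the death receptor FAS (0 against 38.3 to 44.9 TPM), and CDKN2C (0 against 135 to 190.5 TPM) are neighbours, and all were listed at 0 in every U87 control library. CDKN2C lies at chr1:50960745-50974633 on GRCh38. The next expressed genes were present in both lines, with RNF11 at 25.4 to 40.7 against 70.8 to 77.9 TPM and EPS15 at 7.05 to 14.4 against 11 to 15.4 TPM. Copy number was not measured.

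The second such run was on the short arm of chromosome 9, around the genes CDKN2A and CDKN2B that encode p16INK4A, p14ARF and p15INK4B. CDKN2A was at 0 in all 3 U87 libraries and 0.501, 0.287 and 0.293 TPM in U118, and none of the 10 listed genes of 9p21 reached the expression minimum in the untreated cells. From MLLT3 to IZUMO3 every coding gene was under 1 TPM in all 6 libraries. Beyond them TUSC1 (14 to 16.4 against 0 TPM), CAAP1 (3.14 to 5.71 against 0 TPM), PLAA (11.8 to 25.2 against 0 TPM) and IFT74 (3.15 to 6.04 against 0 TPM) were present in U87 and listed at 0 in every U118 control library. So were, at lower levels, C9orf72 (0.721 to 2.07 against 0 TPM), LINGO2 (0.481 to 1.37 against 0 TPM) and MOB3B (0.0931 to 0.202 against 0 TPM). TEK, which lies between IFT74 and MOB3B, was not listed at 0 in U118 but was near 0 in both lines (0.0184 to 0.0224 against 0.00744 to 0.0573 TPM). The flanks RPS6 (1265 to 1324 against 1326 to 1633 TPM) and ACO1 (21.9 to 28.2 against 82.8 to 94 TPM) were present in both. TUSC1, CAAP1, PLAA and IFT74 were nevertheless listed in the libraries of U118 aggregation cells, with TUSC1 at 13.5, 13.8 and 13.9 TPM and PLAA at 33.2, 13.9 and 16.4 TPM. CDKN2C, absent from U87 control, was at 0, 0.0301 and 0 TPM in U118 aggregation libraries.

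Zinc finger genes of chromosome 19, taken by symbol, were mostly higher in U118. Many encode KRAB-type repressors that lie in clusters on that chromosome and are known for silencing transposable elements. Of 263 coding zinc finger genes there, 226 were tested, and 176 were called higher in U118 against 4 higher in U87, with a median difference of -1.85. In all 3 U87 libraries 100 of the tested genes were listed at 0, and in U118 none were, so that these 100 passed the minimum through U118. Of the 237 tested zinc finger genes on other chromosomes, 83 were called higher in U118 and 10 in U87 (median -0.79), and of the other 899 tested genes of chromosome 19, 212 and 99 (median -0.24). Among those chosen after their values were seen, ZNF93 was at 0 in all 3 U87 libraries and 15.2, 12.7 and 16.9 TPM in U118, ZNF43 at 0 in all 3 U87 libraries and 14, 17.2 and 20.2 TPM in U118, and ZNF331 at 0 in all 3 U87 libraries and 18.7, 23.7 and 19.6 TPM in U118. Listed at 0 in U87 and past the minimum through U118, these genes could not overlap between the lines. ZNF667 was at 0 TPM in U87 and 3.12 to 5.54 TPM in U118, and the long non-coding RNA ZNF667-AS1 from the same locus at 0 against 28.1 to 47.7 TPM. Reads shared between near-identical members of this family may have been split by the counting.

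Cancer-testis genes are normally silent outside the germ line and are methylated in most somatic cells. Of the 40 members, 17 reached the minimum and 16 were called higher in U118, none in U87. Each called member had a U87 mean under 1 TPM and passed the minimum through U118, which fixed its direction, and 5 were called where the mean had to reach 10 TPM. MAGEA12 was listed at 0 in every U87 library and was at 58.3, 60.1 and 30.4 TPM in U118, and MAGEA6 was at 51.6, 48.3 and 37.4 TPM in U118. These are multicopy genes among which reads may be split. By chromosome, the percentage of tested genes called higher in U118 was highest on chromosome 18, at 48.5% of 231 genes with a median difference of -0.99, and lowest on chromosome 10, at 12.6% of 580 genes with a median of 0.01. By class, 236 of 640 lincRNAs were called higher in U118 and 100 in U87, and of 483 processed pseudogenes 66 and 69.

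HOX genes, which encode position along the body axis and are off in the normal forebrain, split by cluster. All 7 tested genes of the HOXD cluster and all 4 of HOXB were called higher in U87, and 2 of the 6 of HOXC higher in U118. No tested HOXB or HOXD gene reached 1 TPM in all 3 U118 libraries, so each passed the minimum only with its U87 libraries, which favoured that direction. Where the mean had to reach 10 TPM, 1 HOXB gene and 0 HOXD genes were called. HOXD11 was at 11, 13.9 and 12.9 TPM in U87 and was listed at 0 in U118, HOXD8 was at 11.3, 14.4 and 10.9 TPM in U87 and 0.0447, 0.152 and 0 TPM in U118, and HOXD10 was at 7.93, 12.1 and 11.4 TPM and listed at 0. HOXB2 was at 38.9, 34.5 and 34.7 TPM in U87 and 0.145, 0.111 and 0.235 TPM in U118 (4.99 ± 0.16, adjusted p = 4.76e-07). Of the HOXA cluster, HOXA4 was at 1.32 to 2.32 against 0 TPM. In the opposite direction, HOXC9 was at 0.139, 0.143 and 0.0961 TPM in U87 and 7.04, 7.49 and 9.31 TPM in U118 (-2.98 ± 0.15, adjusted p = 2.97e-06), and HOXC4 at 2.98 to 3.71 against 6.57 to 12 TPM. The HOXC4 call was lost after scaling and without U118 control 3 (difference -0.87).

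Fibroblast and pericyte markers were also mostly higher in U118. Of the 15 genes 13 were tested, 11 were called higher in U118 and 1 in U87, with a median of -3.26. THY1, DCN and POSTN were under 1 TPM in every U87 library and passed the minimum through U118, which fixed their direction. POSTN (periostin), a matrix protein of activated fibroblasts, was at 0.147, 0.917 and 0.114 TPM in U87 and 52.4, 35.5 and 65.9 TPM in U118, a difference of -5.23 ± 0.30, adjusted p = 5.29e-06. COL1A1, the main chain of type I collagen, was at 41.8, 37.3 and 41.3 TPM in U87 and 380.5, 403 and 396 TPM in U118. The exception was ACTA2, smooth muscle actin, at 253, 243 and 254 TPM in U87 and 4.19, 6.11 and 4.81 TPM in U118 (5.39 ± 0.16, adjusted p = 3.65e-07). Among 39 tested mesenchymal transcription factors, 18 were called higher in U118 and 5 in U87 (median -0.88), and 13 and 8 after scaling. FOXC2, which specifies mesenchyme and lymphatic valves, was at 0 to 0.0854 against 80.9 to 120.2 TPM, and TWIST2 at 2.06 to 2.99 against 54.4 to 68.4 TPM. TBX18, a pericyte and epicardial factor (6.74 to 10.4 against 0 to 0.022 TPM), PAX3, a neural crest factor (6.11 to 7.69 against 0 to 0.0255 TPM), and GATA2 (4.74 to 5.69 against 0.162 to 0.377 TPM) went the other way. Fewer cells of a type and less RNA per cell cannot be told apart in bulk samples.

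Markers of neural cell types were mostly low. In the astrocyte and radial glia list 14 of 20 genes were tested, with 4 called higher in U87 and 3 in U118. ALDH1L1, the folate enzyme used as an astrocyte marker, was at 24.1, 19.99 and 23.2 TPM in U87 and 0.0961, 0.0855 and 0.135 TPM in U118 (4.40 ± 0.16, adjusted p = 7.31e-07). SOX9, a glial fate factor, was at 1.0, 1.04 and 1.01 TPM in U87 and 15.8, 17.2 and 24.8 TPM in U118 (-3.30 ± 0.20, adjusted p = 7.48e-06). CRYAB, a small heat shock protein, was at 41.5 to 46.6 against 7.02 to 11 TPM, the glutamate transporter SLC1A3 at 6.58 to 8.78 against 1.79 to 3.07 TPM and the gap junction protein GJA1 at 24.9 to 46.6 against 79.1 to 96.8 TPM. ALDH1L1, SLC1A3 and CRYAB were higher in U87, and SOX9 and GJA1 in U118. Of the oligodendrocyte lineage, PDGFRA and NKX2-2 were U118 genes and OLIG2 was at 1.45 to 4.45 against 0 to 0.0524 TPM. Of 5 tested neuronal markers 2 were called higher in U87, among them MAP2 at 6.06 to 10.2 against 0.425 to 2.23 TPM, and 1 higher in U118. Without U118 control 3 the U87 count was 1. Of 3 tested microglial markers CSF1R, at 5.75 to 6.75 against 1.34 to 1.43 TPM, was the 1 called. In the list of neural and glioma stem genes, 4 of 8 tested genes were called higher in U118 and 1 in U87, with KLF4 at 2.42 to 2.9 against 26.6 to 36.4 TPM, ITGA6 (CD49f) at 4.21 to 6.04 against 28.6 to 40.7 TPM and the hyaluronan receptor CD44 at 311 to 376 against 729.6 to 868 TPM, against ALDH1A1 at 1.77 to 3.59 against 0 to 0.382 TPM.

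Matrix genes were called in both directions within each kind. FN1 (fibronectin) was at 74, 68.2 and 77.9 TPM in U87 and 2754, 3309 and 3879 TPM in U118, a difference of -5.47 ± 0.16, adjusted p = 3.65e-07 between abundant transcripts. Of 28 tested matrix glycoproteins and proteoglycans, 14 were called higher in U118 and 7 in U87, and the U87 genes were led by TGFBI, at 777, 709.7 and 671 TPM in U87 and 29.8, 32.1 and 30.7 TPM in U118, MFAP4 at 61.8 to 65.4 against 6.37 to 9.81 TPM and syndecan SDC1 at 213 to 267 against 60.02 to 67.1 TPM. Collagen genes gave 7 calls for U118 and 2 for U87 among 18, with COL14A1 at 0.0971 to 0.214 against 23.5 to 29.9 TPM, the basement membrane chain COL4A1 at 0 against 8.31 to 9.08 TPM and, on the U87 side, COL4A6 at 4.1 to 4.87 against 0.117 to 0.465 TPM. Of 10 laminin chains 4 were called higher in U118, led by LAMA4 (3.8 to 6.68 against 101 to 119.8 TPM), and LAMA1 higher in U87 (14.5 to 19.2 against 3.97 to 5.14 TPM), and 4 in each direction after scaling. Without U87 control 1, U118 control 2 or U118 control 3, 2 laminin chains were called higher in U87. Hyaluronan synthase HAS2 was at 0.198 to 0.318 against 50.5 to 71.8 TPM.

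Matrix proteases and their inhibitors were called on both sides. MMP3 (stromelysin), which activates other matrix proteases, was at 241, 210.1 and 228 TPM in U87 and 1728, 1637 and 1545 TPM in U118, and the inhibitor TIMP3 at 0.326, 0.388 and 0.228 TPM in U87 and 60.1, 56.8 and 64.6 TPM in U118, both called higher in U118. MMP2 (gelatinase A), abundant in both lines, was called higher in U87, at 2730.4, 2539.8 and 2616 TPM in U87 and 973, 1197 and 959 TPM in U118 (1.34 ± 0.15, adjusted p = 0.000166), as was the inhibitor TIMP4 at 134, 135 and 138 TPM in U87 and 7.57, 8.4 and 6.37 TPM in U118. Of the plasminogen system, SERPINB2 (plasminogen activator inhibitor 2) was at 4.43 to 6.83 against 468 to 616 TPM and SERPINE2 at 57.7 to 66.1 against 840.4 to 1305 TPM, while SERPINA1 (alpha-1 antitrypsin) was at 10.7 to 13 against 0.0244 to 0.0781 TPM.

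Integrins, the receptors for these matrix proteins, gave 8 calls for U118 and 4 for U87 among 17 tested subunits. ITGAX (CD11c), a leukocyte integrin chain, was at 47.5, 41.8 and 47.9 TPM in U87 and 0.327, 0.23 and 0.123 TPM in U118. ITGB3, the beta chain of the vitronectin receptor, was at 39.8, 40.5 and 39.98 TPM in U87 and 1.18, 0.853 and 0.467 TPM in U118, and the laminin receptor chain ITGA7 at 131, 107 and 138 TPM in U87 and 8.18, 8.81 and 5.59 TPM in U118. These 3 were the U87 genes with the largest differences. On the U118 side, the fibronectin receptor chain ITGA4 was at 0.0507, 1.05 and 0.456 TPM in U87 and 22.5, 18.6 and 18.4 TPM in U118, and the collagen receptor chain ITGA2 at 0.586, 1.24 and 0.578 TPM in U87 and 18.2, 13.6 and 10.7 TPM in U118. Of 9 tested cadherins 6 were called higher in U118 and 2 in U87 (1 without U87 control 3), with CDH11, the osteoblast cadherin, at 0 to 0.0984 against 15.3 to 19.4 TPM and CDH3 at 6.95 to 8.2 against 0.0186 to 0.152 TPM. In caveolae, CAV1 was at 193 to 304 against 1521 to 1773 TPM and CAVIN3 went the other way, as given above.

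Among 27 tested receptor tyrosine kinases, 15 were called higher in U118 and 1 in U87 (median -1.05), and 12 and 3 after scaling. PDGFRA was at 0, 0.092 and 0 TPM in U87 and 88.3, 71.8 and 82.9 TPM in U118, a difference of -6.31 ± 0.17, adjusted p = 2.83e-07. The ephrin receptor EPHA4 was at 0.631 to 1.07 against 19.6 to 25.7 TPM and ROR1, a receptor for WNT5A, at 0 to 0.0786 against 8.43 to 14 TPM. DDR1, a collagen receptor, was the U87 gene, at 29.7 to 31.9 against 8.9 to 10.5 TPM. Among 25 tested ligands, 15 were called higher in U118 and 4 in U87 (median -1.30). GAS6, the ligand of AXL and MERTK, was at 0.206, 0.232 and 0.265 TPM in U87 and 129.8, 117 and 71.7 TPM in U118 (-6.40 ± 0.24, adjusted p = 8.49e-07). HGF, the ligand of MET, was at 0.114 to 1.06 against 15.5 to 22.6 TPM, PGF, a ligand of the VEGF receptor FLT1, at 0.777 to 0.833 against 18.3 to 30.2 TPM, and the angiogenic factor VEGFA at 18 to 27.1 against 116 to 211 TPM. TGFA, a ligand of EGFR (3.26 to 4.21 against 0 TPM), and FGF1 (16.5 to 22.1 against 3.15 to 4.55 TPM) were among the ligands called higher in U87. PDGFRA, ROR1, GAS6 and PGF were under 1 TPM in every U87 library, and TGFA in every U118 library, so the minimum fixed their direction.

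Of 32 tested genes of TGF-beta and BMP signalling, 15 were called higher in U118 and 4 in U87. The secreted members were FST, described above, GDF6, a BMP ligand (0 against 91.7 to 108 TPM), and INHBA, the activin A chain (0.0174 to 0.195 against 8.03 to 12.2 TPM). The antagonists of U87 were BAMBI, a pseudoreceptor (76.1 to 81.5 against 2.55 to 3.22 TPM), and GREM1 (5.44 to 7.64 against 0.0109 to 0.0174 TPM), with ID2, a target of BMP signalling, at 36.3 to 75.3 against 16 to 18.4 TPM. In the WNT pathway, 12 of 25 tested genes were called higher in U118 and 5 in U87, and 3 in U87 without U118 control 1. The antagonists were split between the lines: SFRP1 was at 0 in all 3 U87 libraries and 84.6, 86.7 and 93.2 TPM in U118, DKK3 at 0.271, 0.472 and 0.233 TPM in U87 and 97.9, 101 and 87.6 TPM in U118, and DKK1 at 20.6, 29.6 and 27.7 TPM in U87 and 0.0484, 0 and 0 TPM in U118. The ligands were split as well, with WNT7B in U87 and WNT9A in U118 (0 against 8.89 to 15.9 TPM). Of the Notch list, NOTCH4 was at 23.9 to 29.6 against 0.0867 to 1.77 TPM and the ligand JAG1 at 2.65 to 3.77 against 17.2 to 21.1 TPM. Of 33 tested guidance genes 15 were called higher in U118, led by NTN4 (0.779 to 0.983 against 76.2 to 97.7 TPM), SEMA3F (0.187 to 0.249 against 28.1 to 36.1 TPM) and SEMA5A (0.355 to 0.596 against 16.6 to 20.7 TPM), and 6 in U87, led by the receptor PLXND1 (25 to 49.4 against 3.46 to 4.36 TPM).

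For TMZ response, MGMT was listed at 0 in every U87 library and was at 5.85, 4.97 and 3.23 TPM in U118 (adjusted p = 2.40e-05). Its gene lies at chr10:129467184-129768007 on GRCh38. All U118 libraries were above all U87 libraries, at a low level. MGMT passed the minimum only through U118, which fixed its direction and this separation. Of the 14 tested genes of the list of direct repair and TMZ lesions, 3 were called higher in U118 and 1 in U87, both shares below those of all genes (26.9 and 11.3%), and without U118 control 3 the U118 count was 5. The scaffold XRCC1 was at 46.3 to 66.9 against 126 to 128 TPM and the glycosylase NTHL1 at 20.6 to 23.5 against 47.2 to 81.1 TPM, both called higher in U118. PARP1, which senses strand breaks, was at 202, 216 and 236 TPM in U87 and 99.6, 115 and 105 TPM in U118 (1.02 ± 0.13, adjusted p = 0.000324), a call that was lost without U87 control 3 or U118 control 1, where the difference was 0.96 and 0.97. MPG, the glycosylase that removes N-methylated purines, was at 72.6 to 81 against 105 to 169.8 TPM (-0.86 ± 0.19, adjusted p = 0.00593). It was not called, and without U118 control 3 the difference was -1.07.

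In mismatch repair 8 of 22 tested genes were called higher in U118 and none in U87, against 26.9% of all genes called higher in U118, and after median-ratio scaling 2 were called in each direction. Without U87 control 1, U87 control 3 or U118 control 1 the 8 became 5. PMS2, which cuts the strand that carries the mismatch, was at 5.48 to 8.48 against 18.5 to 21.7 TPM (-1.31 ± 0.20, adjusted p = 0.000852), and the exonuclease EXO1 at 7.6 to 11.5 against 31.2 to 36 TPM (-1.64 ± 0.19, adjusted p = 0.000203).

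Most cell cycle genes were not called. Of 53 tested mitosis genes 7 were called higher in U118 and none in U87 (median -0.38), and after scaling 2 and 1. The 7 rested on single libraries, with 1 call without U118 control 3, 2 without U87 control 3, 3 without U87 control 1 or U118 control 1 and 15 without U87 control 2. Of 33 replication genes 7 and 2 were called, and 4 in each direction after scaling, and without U87 control 1 the 7 became 4. The called genes included the helicase subunits GINS4 (5.07 to 7.01 against 43.8 to 66.3 TPM) and GINS1 (12.7 to 15.3 against 56 to 65.4 TPM) on the U118 side and E2F1, which drives S phase genes, on the U87 side (218 to 247 against 37.9 to 58.4 TPM). RB1, the pocket protein that holds E2F, was at 5.22 to 13.6 against 21.2 to 30.3 TPM, its relative RBL2 at 30.9 to 52.9 against 14.2 to 16.7 TPM, and the inhibitor CDKN1B (p27) at 13.6 to 19.4 against 37.1 to 44.5 TPM. CDK6, the kinase that CDKN2C inhibits, was at 0.944, 1.12 and 0.744 TPM in U87 and 12.6, 11.2 and 12.8 TPM in U118. Both were thus higher in U118. CDKN1A (p21), a broad CDK inhibitor, was at 125, 117 and 117 TPM in U87 and 101, 39.4 and 71.2 TPM in U118 (0.85 ± 0.31, adjusted p = 0.0419). It was not called, since the difference was under 1 log2 unit, and without U118 control 1 it was 1.16. MDM2 was at 5.29 to 22.8 against 10.7 to 19.9 TPM (-0.78 ± 0.52, adjusted p = 0.219), with a difference of -1.41 that passed the threshold without U87 control 2. DDB2, a repair sensor, was at 33.4 to 35.9 against 147 to 205 TPM, PERP, a desmosomal protein, at 10.5 to 13.7 against 168 to 181 TPM, SPATA18 at 4.38 to 7.13 against 0 to 0.109 TPM, PHLDA3, an inhibitor of AKT, at 128 to 182 against 25.3 to 52.5 TPM and FDXR at 30.3 to 35.9 against 7.68 to 10.9 TPM.

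Genes of cholesterol and fatty acid synthesis were on the U87 side. Of 28 genes 15 were called higher in U87 and 1 in U118 (median 1.06). SCD, the desaturase that makes oleate, was at 916, 876 and 947 TPM in U87 and 12.7, 16.9 and 15.4 TPM in U118, a difference of 5.85 ± 0.14, adjusted p = 1.98e-07. DHCR7, a reductase at the end of cholesterol synthesis, was at 211, 167 and 179.9 TPM in U87 and 12.3, 15.3 and 11.9 TPM in U118. The exception was SC5D, which precedes DHCR7, at 2.64 to 6.19 against 7.2 to 12.9 TPM, and its call was lost after scaling and without U87 control 1, U87 control 3 or U118 control 3 (adjusted p up to 0.0657). Of 40 tested hypoxia and glycolysis genes 12 were called higher in U118 and 6 in U87, shares close to the 26.9% and 11.3% of all genes, and 7 and 8 after scaling. The secreted targets ADM (10.8 to 12.6 against 70.4 to 129 TPM) and VEGFA and the collagen oxidase LOX (11.9 to 19.8 against 79.6 to 104 TPM) were higher in U118. The carbonic anhydrase CA9 (24.8 to 28.2 against 1.4 to 2.4 TPM), aldolase ALDOC (20.9 to 26.4 against 1.7 to 2.78 TPM) and enolase ENO2 (331 to 384 against 51.9 to 73.3 TPM) were higher in U87. The glutathione and NRF2 list gave 5 calls for U87 and 4 for U118 of 25, with NQO1, a quinone reductase, at 366 to 386 against 116 to 160.2 TPM and SLC7A11, the cystine transporter, at 0.175 to 0.557 against 4.61 to 5.89 TPM.

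Drug transporters and detoxifying enzymes were split. The efflux pumps ABCC3 (18.7 to 25.7 against 0.0222 to 0.174 TPM) and ABCC2 (23.3 to 33.7 against 0.439 to 0.628 TPM) were higher in U87, and ABCC1 (MRP1) was higher in U118 (30.03 to 38.5 against 91.6 to 111 TPM). Of 15 tested aldehyde dehydrogenases 4 were called in each direction, with ALDH2 and ALDH1L1 on the U87 side and ALDH3A1 on the U118 side (0 against 2.78 to 4.22 TPM). The metallothionein MT1F was at 68.8, 67.5 and 64.6 TPM in U87 and 0, 0.235 and 0 TPM in U118, and MT1X at 164, 145 and 155 TPM in U87 and 359, 313 and 459.7 TPM in U118, the reverse. Among cell death genes, PMAIP1 (NOXA) was at 2.96 to 7.86 against 30.9 to 51.4 TPM and the decoy receptor TNFRSF10D at 9.2 to 11.4 against 0.0245 to 0.049 TPM.

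Of 18 genes of class I antigen presentation 5 were called higher in U87 and 1 in U118, against 11.3% and 26.9% of all genes, and 12 were not called. Without U118 control 3 there were 2 calls in each direction, and without U87 control 2 or U118 control 1 there were 2 in favour of U118. B2M, the invariant chain of class I, was at 281, 1750.4 and 1520.1 TPM in U87 and 148, 406 and 109 TPM in U118 (2.27 ± 0.75, adjusted p = 0.0298). U87 control 1 lay far below the other U87 libraries and below U118 control 2, so that the groups overlapped. The call was lost in 4 of the 6 fits that left out a library (adjusted p up to 0.125). The immunoproteasome subunit PSMB10 was at 104 to 128 against 11.2 to 28.5 TPM and the transcriptional activator NLRC5 at 44.9 to 56.3 against 18.5 to 20.5 TPM, against the peptide transporter TAP2 at 21.4 to 40.4 against 70.4 to 98.7 TPM. Of class II genes HLA-DRB1, whose near-identical copies may share reads, was at 84.1, 75.4 and 76.2 TPM in U87 and 0.593, 0.671 and 0.805 TPM in U118, and the invariant chain CD74 at 24.1 to 29.5 against 2.01 to 2.18 TPM. Of 34 tested interferon-stimulated genes 10 were called higher in U118 and 4 in U87, shares close to those of all genes, and 6 and 7 after scaling. BST2 (tetherin) was at 1.48 to 2.23 against 15.6 to 25.5 TPM and IFI44 at 10.5 to 26.4 against 73.8 to 109 TPM, while IFITM2, a restriction factor at the membrane, was at 67.9 to 82.8 against 1.89 to 5.0 TPM and HERC5, the ISG15 ligase, at 5.53 to 12.7 against 0.0739 to 0.182 TPM. Of chemokines, CCL3 was at 7.98 to 9.0 against 0 to 0.111 TPM and CCL26 at 5.45 to 7.75 against 29.1 to 51 TPM.

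Of 23 tested genes of DNA methylation and heterochromatin, 8 were called higher in U118 and none in U87 (median -0.79), and 2 in each direction after scaling. DNMT1, the maintenance methyltransferase, was at 62.1, 71.5 and 69.9 TPM in U87 and 219, 241 and 229 TPM in U118 (-1.75 ± 0.12, adjusted p = 1.59e-05). The heterochromatin protein CBX3 was at 28.5 to 56.7 against 91.3 to 121 TPM. Cytosolic ribosomal proteins gave 6 calls for U118 and 4 for U87 of 61, and 1 and 11 after scaling, with 2 for U87 without U118 control 3. RPL22 and its paralogue RPL22L1 went in opposite directions, with RPL22 at 99.6, 129.6 and 106 TPM in U87 and 594, 462 and 345 TPM in U118 and RPL22L1 at 213, 323 and 244 TPM in U87 and 48.4, 39.6 and 28.9 TPM in U118. RPL39L, a testis-type paralogue of RPL39, was at 66.6 to 85.1 against 0.942 to 1.7 TPM. Of the 13 mitochondrially encoded genes 4 were called higher in U87, and 8 after scaling. The count was 10 without U118 control 3, which had the highest mitochondrial share, and 2 without U87 control 1, U118 control 1 or U118 control 2.

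A panel of RT-qPCR targets and stemness markers was chosen on these cells by the study and is therefore no independent evidence of direction. Of its 23 genes 18 were tested, 7 were called higher in U118 and 1 in U87 (2 without U118 control 1). IGFBP3, which binds insulin-like growth factors, was at 25.9, 26.8 and 18.4 TPM in U87 and 313, 411 and 413 TPM in U118 (-3.95 ± 0.19, adjusted p = 2.13e-06). CXCL3 was at 0.57 to 1.03 against 10.4 to 11.3 TPM, CXCL8 at 0.125 to 0.695 against 2.5 to 3.52 TPM and the damage kinase ATM at 1.88 to 7.77 against 13.2 to 17.5 TPM. HIF1A, the oxygen-sensitive factor, was at 55.2 to 129.9 against 192 to 310.2 TPM. CCL2 was the gene called higher in U87, at 1.8 to 3.23 against 0.0751 to 0.432 TPM. MMP1 and KLF4, also higher in U118, were given above.

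The difference between the lines was also measured in the aggregation cells, which share no library with the control groups. It differed from that between control cells (interaction term of limma over all 12 libraries, at the same threshold) for 4997 of 16382 genes (30.5%). Called again in the same direction between the aggregation groups were 973 of the 5917 genes, 254 were called in the opposite direction and 4690 were not called. The share of all tested genes called between the aggregation groups was not counted, so these counts have no background beside them. The U118 aggregation libraries differed among themselves, with 13.2, 29.9 and 26.1% of TPM in mitochondrially encoded genes, against 22.2 to 23.7% in U87 aggregation. Without U118 aggregation 1 the interaction count was 6157. A wide spread within a group lowers the number of calls, so genes that were not called need not be equal. The U87 aggregation libraries lay nearer to the U87 control mean than to the U118 control mean in 87.9 to 88.3% of the 5917 genes, and the libraries labelled U118 resistant did so in the shares given above. All 44 U87-specific genes were at 1 TPM or more in all 3 U87 aggregation libraries, and 37 of them in all 3 U118 aggregation libraries. Of the 110 U118-specific genes, 14 were at 1 TPM or more in all 3 U118 aggregation libraries and 86 were under 1 TPM in all 3.

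RAB32, listed at 0 in U118 control, was at 171, 142 and 158 TPM in the U118 aggregation libraries, against 235, 232 and 248 TPM in U87 aggregation. FOXF2 and MGMT, present in U118 control, had no listed transcript in any U118 aggregation library. Other genes of U118 control stayed present. GYPC was at 75.2, 177 and 182 TPM and IGFBP1, a binding protein of insulin-like growth factors, at 62.3, 11.7 and 8.82 TPM in U118 aggregation, and both were listed at 0 in U87 aggregation. CPVL and BHMT2, present in U87 control at 23.4 to 29.4 and 11 to 15.2 TPM, had no listed transcript in any U118 aggregation library. The U118 aggregation libraries thus matched neither line in full, and what set their levels was not tested.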

How the data were processed

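mRNA libraries of 12 samples were sequenced, and the authors deposited 1 table of TPM values per cell line, with 3 control and 3 aggregation libraries each. Per the submitters' processing notes, FastQC 0.11.2, Trimmomatic 0.36, HISAT2 2.0 and bedtools 2.26.0 were used with GRCh38, and the tool and annotation behind the TPM values are not given in the sources used here. TPM values keep no read counts, so a count test was not possible and the precision set by depth is unknown.

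Both tables were joined on 58174 shared Ensembl identifiers. Symbols came from a gene name table that matched 57392 identifiers, and positions and classes from GENCODE 29, which matched 57836. A gene entered the test where 3 or more of the 6 control libraries held 1 TPM or more. Differences were tested with limma 3.58.1 (R 4.3.3), with a trended variance prior, on log2(TPM + 1), and adjusted by Benjamini-Hochberg over all tested genes. A gene was called at an adjusted p under 0.05 and a difference of at least 1 log2 unit. An exact permutation test of 3 against 3 libraries cannot go below a two-sided p of 0.1 and was not used. The script was checked on simulated data. The interaction was fitted over all 12 libraries, with the expression minimum met in 3 of them. Zinc finger genes were protein-coding genes with symbols in ZNF, ZFP, ZSCAN or ZKSCAN. Alternatives changed the pseudocount, the filter, the scaling, the call rule, the libraries and the replicate block.

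The members and the 57 gene lists were chosen with earlier results of these data known. Named genes were the 10 largest called, non-overlapping protein-coding differences in each direction, up to 3 called members of each list in each direction, members of the astrocyte, repair, CDK inhibitor, HOX and study lists, and the 5 most abundant nuclear genes per line. Y-linked genes were not named. Line-specific genes, zinc finger genes and genes of the chromosome 1 and 9 segments outside that rule were named after their values were seen. Results that touch items withheld from the text are not reported here.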

Additional observations from a re-analysis of the deposited data

Results flagged for a closer look

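The line difference in aggregation cells differed from that in control cells for 4997 of 16382 genes by the interaction term of limma. Of the 20 genes with the largest control differences, 17 were among them. These genes were chosen for a large control difference, and both differences share the control libraries, so that a change towards 0 is favoured by the choice. The values below are the aggregation difference minus the control difference, on the log2(TPM + 1) scale.

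Of the genes higher in U87 control, the change was -7.64 for RAB32, -4.41 for PTPRN, -8.51 for CAVIN3, -5.38 for CTSK, -8.56 for RAC2, -6.76 for DNM1, -5.12 for NR0B1 and -6.04 for WNT7B. All 8 were thus less in favour of U87 among aggregation cells, and 2 of the 10 U87 genes had the opposite sign there. Their aggregation differences were -0.79 for CAVIN3 and -1.29 for RAC2. OCIAD2 and APOE did not pass the threshold.

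Of the genes higher in U118 control, the change was 1.80 for THY1, 8.75 for MEST, 8.24 for SPANXB1, 7.77 for FOXF2, 10.3 for FST, 7.45 for MMP1, 7.63 for FAM180A, 7.40 for CDKN2C and 7.30 for COLEC12. All 9 were less in favour of U118, and 4 of the 10 U118 genes had the opposite sign. The aggregation differences of these 4 were 2.78 for FST, 0.80 for MEST, 0.46 for SPANXB1 and 0.14 for FAM180A. Only that of FST reached 1 log2 unit. GYPC did not pass the threshold. Whether treatment, selection or the origin of the libraries labelled U118 resistant moved with these values was not tested.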

How the results depend on the processing

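The counts of 1751 and 4166 genes called higher in U87 and U118 became 902 and 1921 where the mean over the libraries had to reach 10 TPM and fewer genes were tested, 2976 and 6696 with no fold threshold, and 602 and 1016 with a threshold of 2 log2 units. Median-ratio scaling left 2636 genes higher in U118 and gave 2601 higher in U87. The other settings moved both counts by less than 1.5 times. Leaving out 1 library gave 1621 to 1823 genes for U87 and 3629 to 4790 for U118, and 4609 to 6157 genes for the interaction, whose count was 2063 at that mean level. Line-specific genes numbered 157 and 284 at 5 TPM against 0.5 TPM, and 8 and 36 at 20 TPM against 0. Replicate numbers did not pair the libraries (correlations of deviations of 0.04, -0.34 and -0.05 between same-numbered libraries of the 2 lines), and the replicate block gave 1758 and 4174 calls and 4848 for the interaction. Among named genes that were not called, RPS6 and VIM turned sign after scaling, to 0.20 and 0.036.

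Of 3438 values of named genes under other settings, 3362 kept direction and side of the threshold, 64 fell below it, 10 passed it and 2 turned sign. The depth is unknown, low TPM values have no counting error attached, and the lines come from separately deposited tables.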
